A study of Mus musculus with 36 samples.

Results

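The subject is a set of 41 cell cycle genes in mouse fibroblasts given interferon, measured in RNA made within defined windows of time. The genes were listed by name, 23 of mitosis, 3 D cyclins and 15 of DNA replication. Each was read by its probe set with the highest mean over all 36 arrays, and was kept if at least 3 arrays had it above a log2 value of 4. This left 40 genes of the 9538 tested on the array, namely 22 mitotic genes, the 3 D cyclins and 15 replication genes. Ccnb1, the gene of a mitotic cyclin, was not analysed here.

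The cells were NIH-3T3, an established line of mouse embryo fibroblasts. They were treated with IFN alpha at 100 U/ml, with IFN gamma at 100 U/ml, or with mock, and each treatment was combined with 4 windows of labelling by 4-thiouridine, or 4sU, which is taken up and incorporated into new transcripts. The windows were 0-30 min, 30-60 min and 150-180 min, with 500 µM 4sU, and 0-60 min, with 200 µM 4sU. Each of the 12 groups had 3 arrays, hybridised with the labelled, newly transcribed RNA. The 0-60 min window differs from the others in length and dose of label, so its values are set beside theirs without a test between them.

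A cell that divides passes through a gap phase, DNA synthesis, another gap phase and mitosis. D cyclins are made in answer to growth factors and, with their kinases, help to switch off the pocket proteins that hold back E2F transcription factors. E2F factors drive genes of DNA synthesis such as the Mcm helicase subunits, and mitotic genes such as Plk1 and Aurka are switched on later through promoter elements called CHR and CCAAT boxes. Interferons are cytokines that slow the growth of many cell types.

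All 8 fibroblast markers passed the filter, with Vim highest at a mean of 13.15, whereas 0 of 6 epithelial and 0 of 5 endothelial markers did. Of 8 macrophage markers only Cd14 passed, at 6.17. Irf1, an early target of both interferons, was higher than in mock by 1.17 to 4.09 with IFN alpha and by 4.73 to 5.86 with IFN gamma on the log2 scale over the 4 windows, and Tap1, a peptide transporter gene, by 2.50 to 4.93 and by 3.70 to 6.05. Arrays of a group correlated at 0.970 to 0.995 across genes in the 30 min windows and at 0.909 to 0.987 at 0-60 min, as a description over genes, which are not replicates. In the 0-60 min window the first mock array stood apart, with a 3′ to 5′ difference of the Gapdh control probes of 2.67 against a window median of -0.31, so results of that window are also given without it. The labels do not say that arrays of a group came from separate cultures, so p-values measure the spread between arrays only. In RNA pooled from all cells of a dish, fewer cells in a phase and less RNA made per cell cannot be told apart.

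Ccnd1, which encodes cyclin D1, was lower with IFN gamma than in mock within the first hour, and this was the largest interferon difference among the 40 genes. In the 30-60 min window its log2 values were 7.87, 7.86 and 7.52 with IFN gamma, against 8.80, 8.85 and 8.62 in mock. The arrays did not overlap, and Ccnd1 was 2.01-fold lower with IFN gamma (log2 difference -1.005 ± 0.18 SE, n = 3 arrays each, limma adjusted p = 0.000167). In the 0-60 min window the values were 8.81, 8.72 and 8.61 with IFN gamma, against 10.60, 9.87 and 9.88 in mock. Again no IFN gamma array reached a mock array, and the difference was -1.40 ± 0.18, or 2.65-fold lower (limma adjusted p = 9.13e-07). Without the first mock array it was -1.16 (limma adjusted p = 1.18e-05).

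In the earliest and the latest window the difference in Ccnd1 did not pass the test. At 0-30 min Ccnd1 was at 9.34, 9.59 and 9.39 with IFN gamma, against 9.75, 9.73 and 9.84 in mock, groups that did not overlap but differed by only -0.33 ± 0.18 (limma adjusted p = 1). At 150-180 min it was at 8.96, 8.36 and 8.34 with IFN gamma, against 9.24, 9.19 and 8.77 in mock. There the groups overlapped, with a difference of -0.51 ± 0.18 (limma adjusted p = 0.107, or 0.00366 with the array number as a block, a pairing left undecided in this window). It was called in 3 of the 7 fits that each left out 1 array, at -0.71 without array 1 of IFN gamma (limma adjusted p = 0.0144), at -0.66 without array 3 of mock (limma adjusted p = 0.0394) and at -0.51 without the first mock array of 0-60 min, which enters only through the shared spread (limma adjusted p = 0.0322). Whether the IFN gamma difference itself changed was tested between windows: 30-60 min against 0-30 min shifted it by -0.67 ± 0.25 (limma adjusted p = 0.351) and 150-180 min against 30-60 min by 0.49 ± 0.25 (limma adjusted p = 0.598), so a change with time was not shown. With the array number as a block the earlier shift was called (limma adjusted p = 0.0178).

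The 3 probe sets of Ccnd1 gave the same direction. The other 2 were lower with IFN gamma by -1.18 ± 0.24 and -1.09 ± 0.18 at 30-60 min, and by -1.17 ± 0.24 and -0.61 ± 0.18 at 0-60 min, each past the test over all kept probe sets. With IFN alpha Ccnd1 did not pass the test. It was at 8.71, 8.76 and 8.44 at 30-60 min, a difference of -0.12 ± 0.18, and at 9.81, 9.77 and 9.58 at 0-60 min, a difference of -0.40 ± 0.18 (limma adjusted p = 0.32, or 0.0482 with the array number as a block). Without the first mock array the 0-60 min difference was -0.16. Set against each other, IFN alpha was higher than IFN gamma in Ccnd1 by 0.89 ± 0.18 at 30-60 min (limma adjusted p = 0.000919) and by 1.004 ± 0.18 at 0-60 min (limma adjusted p = 0.000303). These comparisons share their IFN gamma arrays with those against mock.

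**Figure D1:**
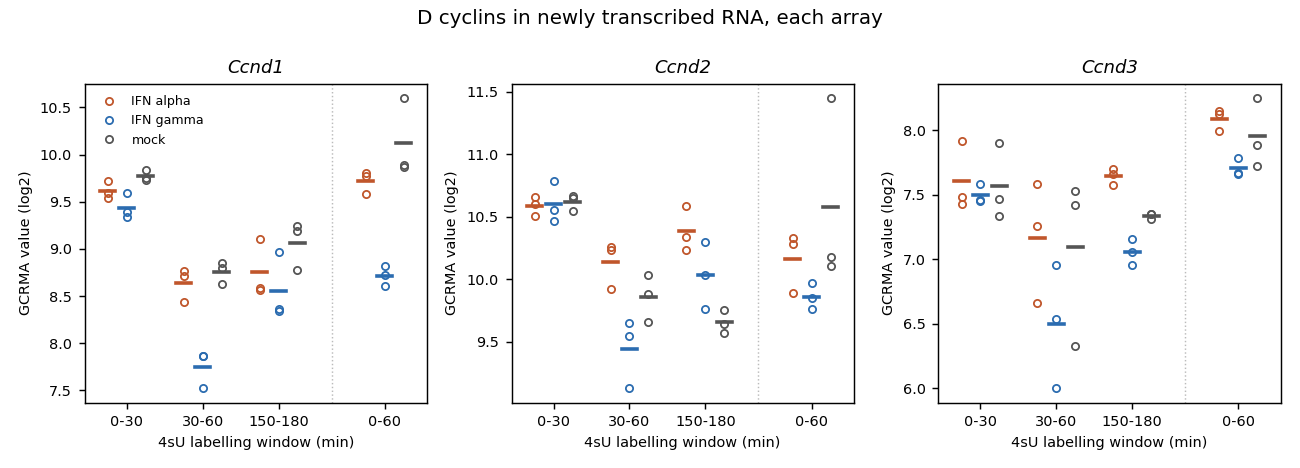
Log2 GCRMA values of the 3 D cyclins in each array (circles) with the group mean (bar), by labelling window, for IFN alpha, IFN gamma and mock; the 0-60 min window, with its other dose of label, stands right of the dotted line. The IFN gamma arrays of Ccnd1 lie at 7.52 to 7.87 at 30-60 min, below the mock arrays at 8.62 to 8.85.

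Ccnd2, the gene of cyclin D2, was lower with IFN gamma at 0-60 min, at 9.97, 9.76 and 9.85, against 11.45, 10.18 and 10.11 in mock. The difference was -0.72 ± 0.21 (limma adjusted p = 0.0368), but the first mock array is the one that stood apart, and without it the difference was -0.28 and not called. The call was also lost without any 1 of the 3 IFN gamma arrays (limma adjusted p = 0.0592 to 0.128). At 30-60 min Ccnd2 was at 9.13, 9.55 and 9.65 with IFN gamma, against 9.66, 10.03 and 9.88 in mock, a difference of -0.42 ± 0.21 (limma adjusted p = 0.389). With IFN alpha in that window it was at 9.92, 10.26 and 10.24, which was higher than with IFN gamma by 0.70 ± 0.21 (limma adjusted p = 0.049). This call was lost under 5 of 9 other settings (limma adjusted p up to 0.111) and in 4 of 7 fits that left out 1 array, namely array 2 or 3 of IFN alpha or array 1 or 2 of IFN gamma (up to 0.298), and it was made with the array number as a block (limma adjusted p = 0.00307). In the last window the values were 10.59, 10.24 and 10.33 with IFN alpha and 10.30, 9.76 and 10.04 with IFN gamma, against 9.75, 9.64 and 9.57 in mock. All 6 interferon arrays lay above the mock arrays, by 0.73 ± 0.21 for IFN alpha (limma adjusted p = 0.0625) and 0.38 ± 0.21 for IFN gamma (limma adjusted p = 0.473), and neither was called.

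Ccnd3, the gene of cyclin D3, was not called in any comparison of treatments unless the array number was a block. At 30-60 min it was at 6.0, 6.96 and 6.54 with IFN gamma, against 6.33, 7.53 and 7.42 in mock, a difference of -0.60 ± 0.24 in overlapping groups (limma adjusted p = 0.197). Each IFN gamma array lay below the mock array of its number, and with the array number as a block the same difference was called (limma adjusted p = 0.000802). With that block IFN alpha was also higher than IFN gamma in Ccnd3, by 0.67 ± 0.12 at 30-60 min (limma adjusted p = 0.000216) and by 0.38 ± 0.12 at 0-60 min (limma adjusted p = 0.0384).

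In the 0-30 min window limma called 0 of the 15 replication genes with either interferon. It called 0 of all 40 cell cycle genes there, and 0 reached an unadjusted p under 0.05. Of all 9538 genes, 0.377% were called there with IFN alpha and 0.797% with IFN gamma. The median difference of the 15 replication genes was -0.06 with IFN alpha and -0.04 with IFN gamma, against -0.03 and -0.02 over all genes. In the later windows Mcm6 was the only replication gene called between treatments without the array number as a block. With it, Cdt1 and Mcm2 were lower with IFN gamma at 30-60 min, and Cdt1, Mcm5, Mcm7 and Rrm1 at 0-60 min, with the first mock array kept.

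Mcm6, a subunit of the helicase that unwinds DNA at replication forks, was higher with IFN alpha at 30-60 min. Its values were 9.43, 9.19 and 8.99 with IFN alpha, against 8.70, 8.79 and 8.32 in mock, without overlap. The difference was 0.60 ± 0.15 (limma adjusted p = 0.0121), and against IFN gamma, at 8.64, 8.88 and 8.61, it was 0.50 ± 0.15 (limma adjusted p = 0.0351). Another probe set of Mcm6 gave 0.20 ± 0.16 against mock and was not called. The call against mock was lost when all arrays of the other windows were left out (limma adjusted p = 0.132), with the mean of probe sets (0.158), without array 1 of IFN alpha (0.12) and without array 3 of mock (0.182). The call against IFN gamma was lost under 5 of 9 other settings (limma adjusted p up to 0.169) and in 4 of 7 fits that left out 1 array, namely array 1 or 2 of IFN alpha or array 1 or 3 of IFN gamma (up to 0.233). With the array number as a block both were called (limma adjusted p = 2.49e-05 and 0.000186).

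Among the mitotic genes Cdc25b, a phosphatase that activates the mitotic kinase Cdk1, was lower with IFN alpha at 30-60 min. It was at 4.83, 4.38 and 4.65 with IFN alpha, against 5.51, 5.46 and 5.59 in mock, close to the filter of 4. The arrays did not overlap, and the difference was -0.90 ± 0.20 (limma adjusted p = 0.00486, or 0.0538 without array 2 of IFN alpha and 0.132 with only the arrays of this window). At 0-30 min the order was the other way, at 6.85, 6.75 and 6.62 with IFN alpha and 6.51, 6.17 and 6.54 in mock, a difference of 0.33 ± 0.20 that was not called. The shift of the IFN alpha difference from 0-30 to 30-60 min was -1.23 ± 0.28 (limma adjusted p = 0.0135), the only such shift called among the 40 genes over 4 tests of this kind, in which 1.32% and 0.472% of all genes were called for IFN alpha, at the earlier and the later step, and 1.5% and 1.89% for IFN gamma. With IFN gamma at 30-60 min Cdc25b was at 4.78, 5.58 and 5.57, overlapping mock, and IFN alpha was lower than IFN gamma by -0.69 ± 0.20 (limma adjusted p = 0.0322). The shift was not called without array 2 of IFN alpha at 30-60 min (limma adjusted p = 0.0578) or array 2 of mock at 0-30 min (0.0655), and the difference from IFN gamma was not called without array 2 or 3 of either interferon (limma adjusted p up to 0.211).

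Cenpa, the histone variant that marks centromeres, was higher with IFN gamma at 0-60 min, at 8.91, 8.91 and 8.81, against 8.31, 8.61 and 8.38 in mock. The difference was 0.44 ± 0.13 (limma adjusted p = 0.0355), and it was not called in 5 of the 6 fits that left out an array of those groups, with 0.38 without the first mock array (limma adjusted p = 0.128). Plk1, the polo-like kinase of mitotic entry, was at 6.82, 6.30 and 6.81 with IFN alpha at 0-60 min, against 7.13, 7.48 and 7.25 with IFN gamma, a difference of -0.64 ± 0.19 (limma adjusted p = 0.0413). It was not called without array 2 of IFN alpha or array 2 or 3 of IFN gamma (limma adjusted p up to 0.287). Against mock, at 7.13, 6.53 and 6.68, neither was called, but with the array number as a block Plk1 was higher with IFN gamma, by 0.51 ± 0.15 (limma adjusted p = 0.0185).

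For core genes of both groups that were not called with IFN gamma, the differences from mock were as follows. With IFN gamma at 30-60 min the mitotic differences were 0.05 for Ccna2, 0.04 for Plk1, 0.08 for Cdc20, -0.32 for Aurka, -0.12 for Top2a and -0.12 for Birc5. The replication differences were -0.35 for Ccne1, -0.38 for Mcm2, 0.11 for Mcm6, -0.19 for Pcna, 0.14 for Rrm2 and -0.19 for E2f1. None of these passed the test, except that Mcm2 was called with the array number as a block (limma adjusted p = 0.0125). Those at 150-180 min were not called either, and were -0.06 for Plk1, -0.25 for Aurka, 0.21 for Top2a, -0.09 for Mcm2 and -0.31 for Pcna.

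Counted over all 40 genes, a comparison of treatments had 0 to 4 calls. The share called over all genes is given beside each count of calls. With so few calls, no difference from that share is read. Counts at an unadjusted p under 0.05 are given throughout without the share of all genes at that threshold, so nothing is read from them. At 30-60 min, 2 were called with IFN alpha, where 2.59% of all genes were, and 1 with IFN gamma, where 5.89% were. At 0-60 min, 0 were called with IFN alpha (1.97% of all genes), with 4 lower at an unadjusted p under 0.05, and 3 with IFN gamma (6.77%). At 150-180 min limma called 0 with either interferon, where 2.68% and 5.9% of all genes were called, and at an unadjusted p under 0.05 there were 1 higher with IFN alpha and 2 lower with IFN gamma. IFN alpha against IFN gamma had 0 calls at 0-30 min, where 0.713% of all genes were called, and 4 at 30-60 min, where 5.69% were. It had 2 at 0-60 min (4.02%) and 0 at 150-180 min (4.68%), and at an unadjusted p under 0.05 it had 0 at 0-30 min and 4 higher at 150-180 min. In the last window the median over all genes was itself shifted, by -0.10 with either interferon, and the median of the 40 genes was -0.14 with IFN alpha and -0.18 with IFN gamma.

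Array numbers of a window paired the arrays at 0-30, 30-60 and 0-60 min, and with them as a block the counts were larger. IFN gamma against mock then had 4 calls at 30-60 min, where 12.2% of all genes were called under the same block, all lower: Ccnd1, Ccnd3, Cdt1 at -0.36 ± 0.07 and Mcm2 at -0.38 ± 0.10. At 0-60 min it had 11, beside 20.4% of all genes, with Bub1b, Ccnd1, Ccnd2, Cdt1, Cenpe, Mcm5, Mcm7 and Rrm1 lower and Cenpa, Kif11 and Plk1 higher. The differences other than those of the D cyclins ran from -0.63 for Bub1b to 0.51 for Plk1. The block fit was not run without the first mock array of 0-60 min, which stood apart. Except in Cdt1, Cenpe and Plk1, the gap to mock in that window was widest in array 1. Rrm1, for example, was at 8.73, 9.31 and 9.19 with IFN gamma, against 9.65, 9.34 and 9.27 in mock. Cdt1, which loads the Mcm helicase onto DNA, was called lower in both windows. Of the Mcm subunits, Mcm2 was called only at 30-60 min and Mcm5 and Mcm7 only at 0-60 min, and Mcm3, Mcm4 and Mcm6 in neither. IFN alpha against IFN gamma had 7 calls at 30-60 min and 8 at 0-60 min under the block, where 10.3% and 9.54% of all genes were called, and IFN alpha against mock had 1 at 0-60 min, Ccnd1, beside 4.8% of all genes.

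**Figure D2:**
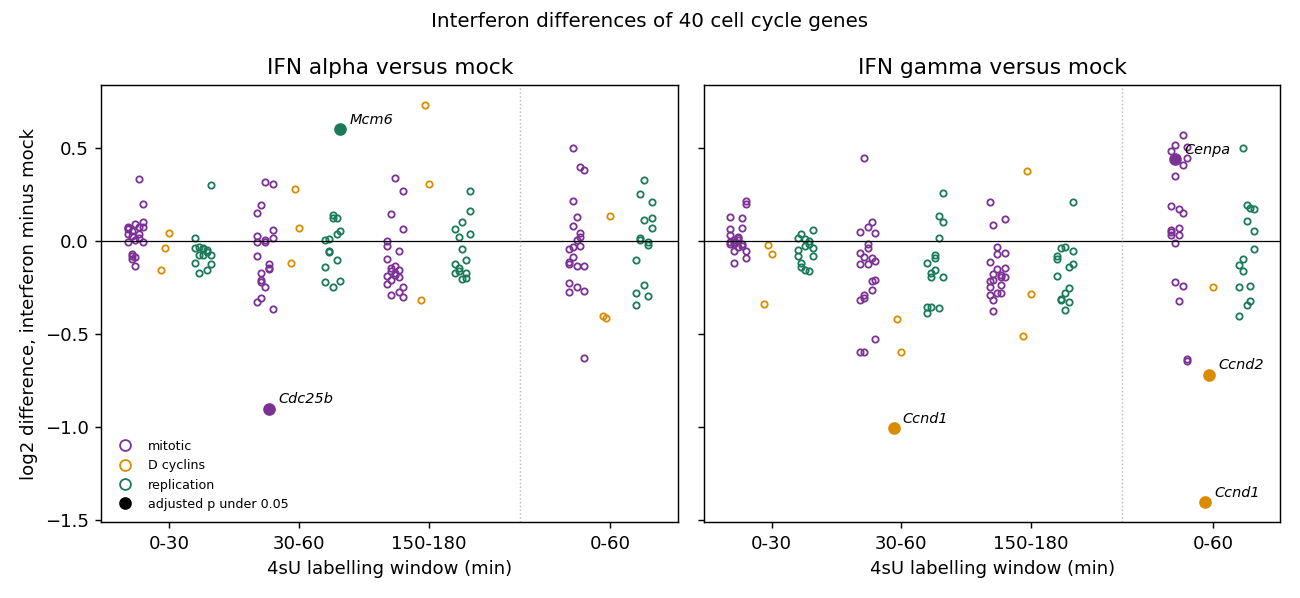
Log2 difference of each of the 40 genes between interferon and mock (circles), by labelling window and group of genes, with IFN alpha on the left and IFN gamma on the right. Filled, named circles passed the adjusted p of 0.05 in limma; the lowest is Ccnd1 with IFN gamma at 0-60 min, at -1.40.

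The wider pathway was read from 5 lists of 109 genes outside the set, of which 100 were tested. Calls of these genes were not followed in the fits that left out 1 array. With IFN alpha limma called 0 of the 100 in any window, where 0.377% to 2.68% of all genes were called. At an unadjusted p under 0.05 there were at most 3 in a list in a direction, again without the share of all genes. Myc, a growth-factor induced transcription factor, was lower with IFN gamma in the same windows as Ccnd1. It was at 10.83, 11.41 and 11.51 with IFN gamma, against 11.64, 11.89 and 12.20 in mock, at 30-60 min, a difference of -0.66 ± 0.20 (limma adjusted p = 0.0444). At 0-60 min the difference was -0.69 ± 0.20 (limma adjusted p = 0.0309). Cdk6, a kinase partner of the D cyclins, was higher with IFN gamma at 150-180 min, at 10.56, 10.61 and 10.67, against 9.57, 9.51 and 9.58 in mock. This difference was 1.06 ± 0.11 (limma adjusted p = 3.33e-09), and it was larger than that at 30-60 min by 0.89 ± 0.15 (limma adjusted p = 0.000274).

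Of the other regulators, 14 of the E2F, MuvB and FoxM1 list were tested. Among them Tfdp2, a partner of E2F factors, was higher with IFN gamma at 30-60 min by 0.60 ± 0.18 (limma adjusted p = 0.0383), and Lin54, the DNA-binding subunit of MuvB, was higher at 0-60 min by 0.76 ± 0.21 (limma adjusted p = 0.0269). Of 38 replication partners only Prim2, a primase subunit, was called, lower with IFN gamma at 0-60 min by -0.65 ± 0.19 (limma adjusted p = 0.0277). None of 34 mitotic partners and none of 7 CDK inhibitors and pocket proteins were called with interferon. In either list there were at most 2 in a direction at an unadjusted p under 0.05, again without the share of all genes. Cdkn1a, an inhibitor of cyclin-dependent kinases, was at 8.12, 9.09 and 8.83 with IFN gamma and 8.15, 9.51 and 8.89 in mock at 30-60 min, and Foxm1, a driver of mitotic genes, differed from mock by between -0.29 and -0.04 in the 8 comparisons.

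As a share of the variance over 36 arrays, the window took a median of 92.5% for mitotic genes, 89.1% for replication genes and 54.6% for D cyclins, and 66.5% for all tested genes. Treatment took 0.301%, 1.43% and 14.0% in the same order, and 2.10% for all tested genes. Ccnd1 had the highest treatment share of the 40 genes, at 26.0%, and Mcm3 the highest window share, at 98.3%. All 4 windows enter this share, with the other dose of label at 0-60 min.

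The 3 windows of 30 min were compared within each treatment. Over all genes the median was itself lower at 30-60 min than at 0-30 min by -0.52 in mock, and higher at 150-180 min than at 30-60 min by 0.55, so the differences below are read against these shifts. Of the 40 genes, 39 had their lowest group mean in a 30-60 min group. That count was not made over all tested genes, whose array median was also lowest in that window, at 6.48 to 6.58.

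Mitotic genes dipped at 30-60 min as a group. Plk1 was at 7.58, 7.01 and 7.14 in mock at 0-30 min, at 4.45, 4.72 and 4.85 at 30-60 min, and at 7.70, 7.68 and 7.69 at 150-180 min. Aurka, the kinase of spindle poles, was at 8.43, 8.14 and 8.16, then at 6.16, 5.72 and 5.69, then at 9.16, 9.13 and 8.99 over the same windows. Top2a, which untangles chromosomes, was at 10.73, 11.03 and 10.96, then at 9.60, 9.21 and 9.11, then at 11.34, 11.34 and 11.23. For each of these genes every 30-60 min array lay below every array of the other 2 windows. Cdc20, which activates the anaphase-promoting complex, was at 9.47, 8.88 and 8.94 at 30-60 min, against 10.85, 10.57 and 10.51 at 0-30 min. Ccna2, the gene of cyclin A2, was at 9.38, 8.88 and 8.52, against 10.21, 10.36 and 10.37. Birc5, a subunit of the chromosomal passenger complex, was at 7.94, 7.42 and 7.76, against 8.75, 8.58 and 8.30.

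In mock all 22 mitotic genes were lower at 30-60 min than at 0-30 min. Of all tested genes 51.8% were called lower and 9.05% higher in this comparison. The differences were -2.67 for the cyclin gene Ccnb2, -2.57 for Plk1, -2.39 for Aurka, -2.29 for the kinesin Kif20a, -2.25 for the kinetochore gene Cenpf and -2.11 for the checkpoint kinase Bub1b. They were -1.97 for Aurkb, -1.61 for Bub1, -1.60 for Top2a, -1.57 for Ttk, -1.55 for Nek2 and for Cdc20, -1.45 for Mad2l1, -1.41 for Cenpe and -1.39 for Ccna2. They were smallest for the kinesins Kif23 and Kif11, at -1.21 and -1.18, for Cenpa, at -1.12, for Cdk1, at -1.03, for Cdc25b, at -0.89, for Birc5, at -0.83, and for Cdc25c, at -0.65. Their median was -1.55, and all 22 lay below the median of all genes. After a shift of every array to a common median, 19 of the 22 were still called lower, where 22.2% of all genes were, and Cdc25b, Cdc25c and Birc5 were not.

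At 150-180 min all 22 were higher than at 30-60 min in mock, where 53.4% of all genes were. The differences ran from 1.05 for Kif11 to 3.24 for Aurka, with 3.02 for Plk1, 2.93 for Kif20a, 2.82 for Ccnb2, 2.69 for Bub1b and 2.51 for Aurkb. Their median was 1.95. With the arrays at a common median 21 were called, without Kif11, where 25.6% of all genes were higher. Both comparisons use the same 30-60 min arrays, so they are not separate evidence of a low point there.

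Compared over the longer step, 150-180 against 0-30 min, mock had 9.7% of all genes called. Of the 22 mitotic genes 5 were higher and 0 lower: Cdc25c by 1.14 ± 0.27, Aurka by 0.85 ± 0.21, Cdc25b by 0.78 ± 0.20, Aurkb by 0.54 ± 0.18 and Cdk1 by 0.42 ± 0.13. Cdk1 lost its call without any 1 of the 6 arrays compared (limma adjusted p = 0.0568 to 0.158) and under 3 of 9 other settings, a common median among them (0.0765). Aurkb lost it in 5 of 7 fits that left out 1 array (limma adjusted p up to 0.24) and with no filter (0.0672), Cdc25b without array 2 of 0-30 min (0.0699), and Aurka with the mean of its probe sets, at 0.19 (0.606). Cdc25c, a phosphatase of mitotic entry, was at 6.39, 6.47 and 6.35 at 150-180 min, against 5.32, 5.28 and 5.18 at 0-30 min. Of the replication genes 0 were called in mock, and 3 had an unadjusted p under 0.05, a count given without the share of all genes. The count of called genes among all 40 was 16 in place of 7 without the first mock array of 0-60 min, which enters only through the shared spread. The share of all genes called in that fit is not given here, so this rise is not read as a result about the 40 genes.

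**Figure D3:**
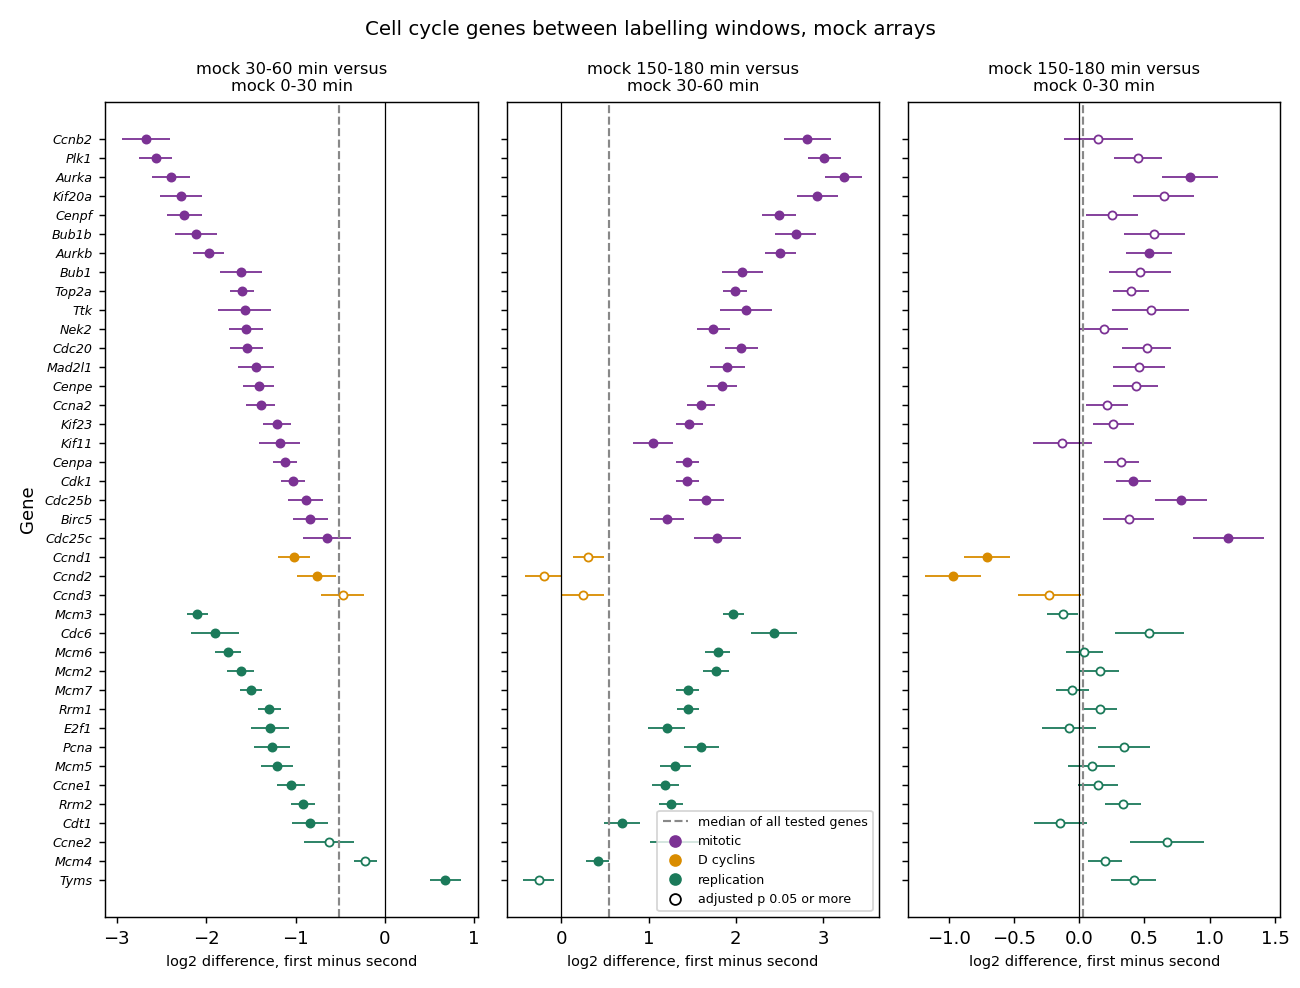
Log2 difference of each of the 40 genes between labelling windows in mock, with its standard error (bars), sorted within mitotic genes, D cyclins and replication genes. Filled circles passed an adjusted p of 0.05 in limma, and the dashed line is the median of all tested genes; all mitotic genes lie left of it on the left and right of it in the middle.

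Most replication genes were also lowest at 30-60 min. Mcm3, a subunit of the helicase, was at 9.97, 9.78 and 10.02 at 0-30 min in mock, at 7.73, 8.05 and 7.70 at 30-60 min, and at 9.78, 9.78 and 9.83 at 150-180 min. Mcm2 was at 9.13, 8.76 and 8.97, then at 7.40, 7.25 and 7.37, then at 9.07, 9.03 and 9.23. Their 150-180 min arrays differed from those of 0-30 min by -0.13 ± 0.12 for Mcm3 and 0.16 ± 0.15 for Mcm2, and neither was called.

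Further replication genes had smaller differences. Pcna, the sliding clamp of DNA polymerase, was at 12.35, 12.37 and 12.35, then at 11.35, 10.84 and 11.11, then at 12.76, 12.59 and 12.76. Rrm2, a subunit of the enzyme that makes deoxynucleotides, was at 11.71, 11.76 and 11.84, then at 11.04, 10.76 and 10.75, then at 12.18, 11.97 and 12.16. Ccne1, the gene of cyclin E1, was at 6.35, 6.58 and 6.41 at 30-60 min, against 7.62, 7.51 and 7.35 at 0-30 min. E2f1, an E2F factor and itself an E2F target, was at 5.05, 5.14 and 4.83, against 6.34, 6.31 and 6.23.

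In mock 12 of the 15 replication genes were lower at 30-60 min than at 0-30 min, where 51.8% of all genes were called lower and 9.05% higher. The differences were -2.10 for Mcm3, -1.90 for the licensing factor Cdc6, -1.75 for Mcm6, -1.61 for Mcm2, -1.50 for Mcm7 and -1.29 for the ribonucleotide reductase subunit Rrm1. They were -1.29 for E2f1, -1.26 for Pcna, -1.21 for Mcm5, -1.05 for Ccne1, -0.92 for Rrm2 and -0.84 for Cdt1. Their median over all 15 was -1.26, and 13 lay below the median of all genes. Ccne2, at -0.63 ± 0.28, and Mcm4, at -0.22 ± 0.13, were not called, and with the arrays at a common median Mcm4 was higher by 0.34, Cdt1 and Rrm2 were no longer called, and 10 of the 15 were lower.

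Tyms, the gene of thymidylate synthase, was higher at 30-60 than at 0-30 min. It was at 8.09, 8.23 and 8.40 at 0-30 min in mock, at 8.98, 8.84 and 8.93 at 30-60 min, and at 8.45, 8.73 and 8.80 at 150-180 min. The difference of 30-60 from 0-30 min was 0.68 ± 0.17 (limma adjusted p = 0.00133), and it was called in all 3 treatments, though in IFN alpha arrays not in 2 of 7 fits that left out 1 array. At a common median it was 1.24 in mock. In mock at 150-180 against 30-60 min Tyms differed by -0.26 ± 0.17 and was not called. The other 14 replication genes were higher, by 0.42 for Mcm4 to 2.44 for Cdc6, where 53.4% of all genes were higher. Over 9 other settings Mcm4 ran from -0.16 to 1.09 in this step. With the arrays at a common median Tyms was lower in this later step, by -0.84 ± 0.18 (limma adjusted p = 0.00021). There Mcm4 differed by -0.16 and Cdt1 by 0.12 without a call, and 12 of the 15 were higher, where 25.6% of all genes were. Tyms was the gene whose lowest group mean fell outside the 30-60 min window, at 7.75 in mock at 0-60 min.

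**Figure D4:**
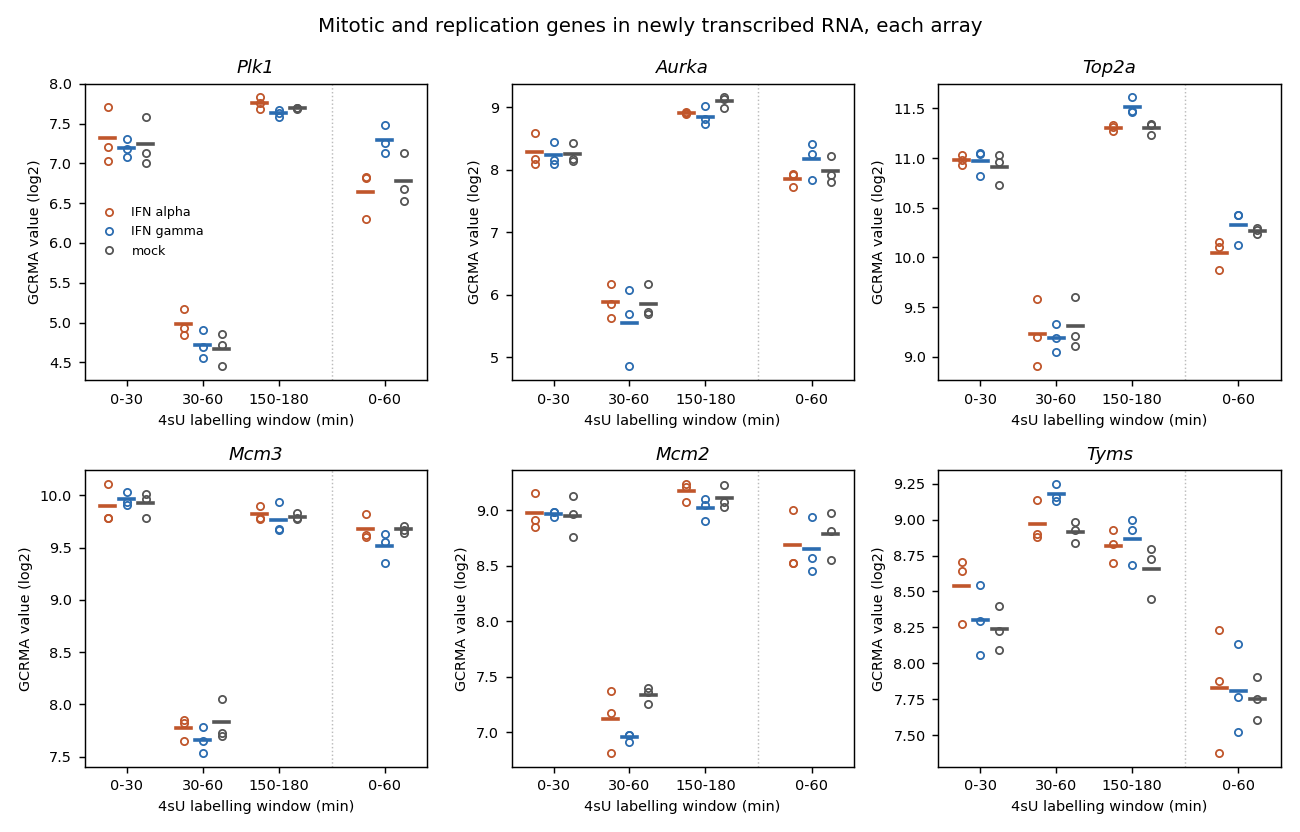
Log2 GCRMA values in each array (circles) with the group mean (bar) by labelling window for the mitotic genes Plk1, Aurka and Top2a and the replication genes Mcm3, Mcm2 and Tyms, for IFN alpha, IFN gamma and mock; the 0-60 min window stands right of the dotted line. All but Tyms are lowest at 30-60 min in every treatment, as with Plk1 at 4.45 to 5.16.

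Of the D cyclins, 2 of 3 were called lower at 30-60 than at 0-30 min in mock, where 51.8% of all genes were. At 150-180 against 30-60 min, where 53.4% of all genes were called higher, 0 were called, also at an unadjusted p under 0.05. With so few genes, no difference from these shares is read. Ccnd1 was at 9.75, 9.73 and 9.84 in mock at 0-30 min, at 8.80, 8.85 and 8.62 at 30-60 min, and at 9.24, 9.19 and 8.77 at 150-180 min. Its fall to 30-60 min was called (-1.02 ± 0.18, limma adjusted p = 1.62e-05, or -0.46 with the arrays at a common median, adjusted p = 0.0258), its later difference of 0.31 ± 0.18 was not, and at 150-180 min it was below 0-30 min by -0.70 ± 0.18 (limma adjusted p = 0.00967, or 0.0768 without array 3 of 150-180 min). Ccnd2 was at 10.54, 10.67 and 10.65, then at 9.66, 10.03 and 9.88, then at 9.75, 9.64 and 9.57. It fell by 0.76 to 30-60 min and stood below 0-30 min at 150-180 min by -0.97 ± 0.21 (limma adjusted p = 0.00313), while Ccnd3 was not called in any mock comparison. With the arrays at a common median Ccnd2 was not called lower at 30-60 min, where 22.2% of all genes were. It was then lower at 150-180 than at 30-60 min, by -0.78, where 28.5% of all genes were lower.

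The dip was present in each treatment, but the 3 treatments of a window are not separate repeats of it. Arrays of the same number deviated together across treatments in 9 of 9 pairs of groups, with a median correlation of 0.40 at 0-30 min and 0.61 at 30-60 min. At 30-60 against 0-30 min, 35 of the 40 genes were lower and 1 higher in IFN alpha arrays, where 51.2% of all genes were lower and 10% higher, and 38 were lower and 1 higher in IFN gamma arrays, where 52.9% were lower and 10% higher. At 150-180 against 30-60 min, 36 were higher with IFN alpha (50.6% of all genes) and 38 with IFN gamma (52.6%), and 0 lower with either. With the arrays at a common median 32 were lower at the first step in IFN alpha arrays (21.9% of all genes) and 32 in IFN gamma arrays (22.4%), and 33 and 34 were higher at the later step (23.1% and 22.6%). The first fall was called in all 3 treatments for 34 genes, where 42.6% of all tested genes were, among them 21 of 22 mitotic genes, the exception being Cdc25c, whose IFN alpha difference was -0.58 ± 0.27 (limma adjusted p = 0.0636). The later rise was called in all 3 for 35 genes, beside 42.8% of all tested genes, with Ccnd1, Ccnd2, Ccnd3, Mcm4 and Tyms outside. At a common median these counts were 30 and 32 genes, beside 15.1% and 16.1% of all. In IFN gamma arrays the 3 D cyclins were all higher at 150-180 than at 30-60 min, Ccnd1 by 0.80 ± 0.18, Ccnd2 by 0.59 ± 0.21 and Ccnd3 by 0.56 ± 0.24. At a common median none of the 3 was called there, and the differences were 0.25 for Ccnd1, 0.04 for Ccnd2 and 0.01 for Ccnd3.

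At 150-180 against 0-30 min, 3 genes were higher and 1 lower in IFN alpha arrays, where 10.8% of all genes were called, and 4 were higher and 1 lower in IFN gamma arrays, where 12.3% were. Cdc25c was higher and Ccnd1 lower in each treatment: Cdc25c by 0.90 ± 0.27 with IFN alpha and 1.09 ± 0.27 with IFN gamma, Ccnd1 by -0.87 ± 0.18 and -0.88 ± 0.18. Cenpa was higher with IFN alpha by 0.41 ± 0.13 and with IFN gamma by 0.53 ± 0.13. The others were Cenpe with IFN alpha, at 0.86 ± 0.17, and Top2a and Tyms with IFN gamma, at 0.55 ± 0.14 and 0.57 ± 0.17. In IFN alpha arrays Cdc25c lost its call without any 1 of the 6 arrays compared (limma adjusted p = 0.0601 to 0.0868) and with no filter (0.0559), and Cenpa without array 2 or 3 of either window (up to 0.194). Tyms lost its call in 4 of 7 fits that left out 1 array (limma adjusted p up to 0.166). With the mean of probe sets Tyms was not called (0.15), nor was Cenpe with IFN alpha (0.123), and Cenpa turned to -0.16 with IFN alpha and -0.13 with IFN gamma, also not called.

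The low levels at 30-60 min came with other features of those arrays. The spiked control transcript bioC, which is added at hybridisation, averaged 7.14 at 0-30 min, 9.003 at 30-60 min and 6.80 at 150-180 min, and ranged from 7.17 to 10.38 within the 30-60 min arrays. Within 30-60 min bioC was 10.26 to 10.38 in arrays 1, 9.23 to 9.43 in arrays 2 and 7.17 to 7.65 in arrays 3. The 3′ to 5′ difference of the Gapdh control probes was 0.56 to 0.73 in arrays 2 there, against -0.57 to -0.01 in arrays 1 and 3. At 150-180 min it was 0.51 in array 3 of IFN gamma, against a window median of -0.35. The part of these features in the differences between windows was not tested, and window and set of arrays cannot be told apart.

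Partner genes outside the set were also mostly lower. In mock 28 of 34 mitotic partners and 36 of 38 replication partners were lower at 30-60 than at 0-30 min, with 0 higher, beside 51.8% lower and 9.05% higher of all genes, and their medians were -1.22 and -1.43. At a common median of the arrays 17 mitotic partners were lower and 2 higher, and 28 replication partners were lower and 0 higher, beside 22.2% lower and 26.5% higher of all genes. The largest were Hmmr, at -2.38 ± 0.22, and Gmnn, which encodes the inhibitor of Cdt1, at -1.999 ± 0.24. Foxm1 was lower by -1.08 ± 0.19 and Cdkn1a by -1.10 ± 0.30. Of the 7 kinase and growth-factor genes of the first gap phase 6 were lower at 30-60 than at 0-30 min, among them Cdk4 at -1.27 ± 0.18, and 6 were higher at 150-180 than at 30-60 min with Myc lower, at -0.78 ± 0.20. Of the 7 CDK inhibitors and pocket proteins 5 were lower and then 6 higher, with Rb1 lower at the later step by -0.44 ± 0.19, and of the 14 E2F, MuvB and FoxM1 genes 10 were lower and then 13 higher. At a common median these counts were smaller, with 4, 2 and 4 lower in the same order of lists and 3, 3 and 5 higher at the later step. There Cdkn1a was not called lower (-0.54), and Rb1 and Myc were higher at 30-60 than at 0-30 min, by 0.68 and by 1.01. Lin52, a subunit of MuvB, was higher at 30-60 than at 0-30 min by 1.95 ± 0.38 (limma adjusted p = 7.38e-05).

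For the 0-60 min window, with its other label, levels are given beside those of the first 30 min windows. The median of the 22 mitotic genes in an array ran from 7.59 to 8.09 at 0-60 min, beside 8.23 to 8.60 at 0-30 min and 6.49 to 7.06 at 30-60 min. For the 15 replication genes the medians were 9.36 to 9.83 at 0-60 min, beside 9.60 to 10.02 and 8.32 to 9.13. Over all tested genes they were 6.95 to 7.24, beside 7.03 to 7.14 and 6.48 to 6.58.

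The mitotic and replication genes were also compared in their promoters, read as 250 bases before to 50 after the start of the gene from RefSeq sequences of build GRCm38.p6. Of the 40 genes 32 had an entry, 18 mitotic, 13 replication and 1 D cyclin gene, and Mcm7 and Ccnd3 had 2 promoters each. The motifs reported were searched on both strands, namely CHR, as TTTGAA or TTCGAA, the CCAAT box, as CCAAT, and an E2F site, as TTTCCCGC, TTTGGCGC, TTTCGCGC or TTTGCCGC. Matches of a motif may overlap.

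A CHR was in 14 of 18 mitotic promoters, or 77.8%, in 14.3% of 14 replication promoters and in 19.2% of all 32851 promoters. A CCAAT box was in 88.9%, 64.3% and 37.4%. The E2F letters were in 5.56% of mitotic and 42.9% of replication promoters, and in 2.26% of all. A match is a description of letters and not of binding. The 150 bases before the start are shown next for some of the genes with motifs there, so that both groups, which dipped together at 30-60 min, can be read side by side. Capitals mark, on either strand, CHR and CCAAT matches in the mitotic genes, with the E2F match of Cdk1, and E2F matches in the replication genes, and each runs 5′ to 3′ on the strand of the gene.
Cdc20, chr4:118437344-118437493, minus strand: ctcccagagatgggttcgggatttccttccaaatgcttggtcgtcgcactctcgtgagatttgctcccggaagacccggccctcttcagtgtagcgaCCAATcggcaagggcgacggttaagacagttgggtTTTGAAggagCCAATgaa
Cdk1, chr10:69352913-69353062, minus strand: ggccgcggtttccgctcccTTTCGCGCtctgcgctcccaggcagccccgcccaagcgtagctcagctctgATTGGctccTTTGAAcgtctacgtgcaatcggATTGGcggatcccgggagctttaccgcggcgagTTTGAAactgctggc
Kif11, chr19:37376232-37376381, plus strand: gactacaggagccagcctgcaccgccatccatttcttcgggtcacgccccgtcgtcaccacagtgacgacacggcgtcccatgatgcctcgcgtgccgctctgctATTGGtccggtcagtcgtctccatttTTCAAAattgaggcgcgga
Top2a, chr11:99024190-99024339, minus strand: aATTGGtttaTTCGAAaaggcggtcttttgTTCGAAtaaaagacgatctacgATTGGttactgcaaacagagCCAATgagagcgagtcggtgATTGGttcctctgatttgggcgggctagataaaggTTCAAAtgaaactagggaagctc
Mcm6, chr1:128359706-128359855, minus strand: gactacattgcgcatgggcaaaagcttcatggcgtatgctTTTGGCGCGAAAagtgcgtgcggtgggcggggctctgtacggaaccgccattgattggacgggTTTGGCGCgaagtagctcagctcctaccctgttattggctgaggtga
Cdc6, chr11:98908001-98908150, plus strand: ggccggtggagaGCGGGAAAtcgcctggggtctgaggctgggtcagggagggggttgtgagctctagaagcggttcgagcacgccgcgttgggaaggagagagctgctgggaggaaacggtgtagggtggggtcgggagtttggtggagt
In Cdc20 the CHR began 18 bases before the start with CCAAT boxes at -53 and -8, and in Kif11 the CHR was at -19 and the CCAAT box at -45. Cdk1 had CHR matches at -71 and -15 and an E2F match at -131, and Top2a had CHR matches at -140, -120 and -23. Before the stretch shown, Top2a had a further CHR match at -179 and CCAAT boxes at -227 and -189, and Cdk1 a CCAAT box at -208. Beside these, Cdc20 differed by -1.55, Kif11 by -1.18, Cdk1 by -1.03 and Top2a by -1.60 between 30-60 and 0-30 min in mock. Mcm6 had E2F matches at -110, -106 and -47 and differed by -1.75, and Cdc6 had its match at -138 and differed by -1.90. Mcm6 also had CCAAT boxes at -57 and -14, which lie in the stretch shown but in lower case. Of the replication genes not shown, Mcm2 had a CHR at -70 and a promoter of Mcm7 had it at -173. Plk1 and Aurka, with larger differences, had their CHR after the start, at 31 and 33. In Ccnb2, with a larger difference still, a CHR was at 5. Cdc25b, Cenpa and Kif23, with smaller differences than Plk1 and Aurka, had theirs at 8, 17 and 3. Position and difference were not tested together.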

How the data were processed

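RNA labelled with 4sU was measured on 36 Affymetrix arrays, and the deposited log2 values of 45101 probe sets come from the authors' GCRMA step, according to the submitters' processing notes, which name no version. They were used without further scaling. Of the probe sets 34945 had 1 symbol, 932 several and 9160 none, and 64 were controls. Probe sets of Cdc20, Cdc25c, Aurkb, Bub1b, Nek2, Ccnd2, Mcm3, Mcm4, Mcm5, Mcm7 and Rrm2 carry a suffix that marks possible cross-hybridisation.

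The 12 group means were estimated together with limma 3.58.1 under R 4.3.3, using an intensity trend and the package data.table in version 1.17.8, with 24 residual and 6.8 prior degrees of freedom. A gene was called at a two-sided Benjamini-Hochberg adjusted p under 0.05 over 9538 genes, and errors are standard errors of this fit with n = 3 arrays a group. There were 19 planned comparisons, and 6 between windows within IFN alpha or IFN gamma arrays were added after the data were seen. The fit was tested on simulated data. The members and lists were chosen with earlier results of these data known. Genes named with values were those called, and a panel of 14 core genes, Ccnb1 among them.

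Arrays carry numbers in the labels. Arrays of the same number deviated together in 9 of 9 pairs of groups at 0-30, 30-60 and 0-60 min (correlation over 0.1), so for those windows the block is given where it changed a call. At 150-180 min 7 of 9 did, with a median correlation of 0.34 and a lowest of -0.29, so pairing there was left undecided. Block results of that window stand at the end, and that of Ccnd1 also in the text. The IFN alpha and IFN gamma comparisons share mock arrays. The settings tried besides were a filter at 6 or none, log2 after adding 16, quantile normalization, a common median, the mean of probe sets, only the windows compared, the block, no trend and leaving out arrays. The number of arrays limits the precision. A further promoter motif is not reported here.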

Additional observations from a re-analysis of the deposited data

Results flagged for a closer look

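The IFN alpha difference of Cdc25b changed between windows by a test of the difference itself: at 30-60 min minus 0-30 min it was -1.23 on the log2 scale (limma adjusted p = 0.0135, n = 3 arrays a group). Cdk6, outside the set, had an IFN gamma difference that was larger at 150-180 than at 30-60 min by 0.89 (limma adjusted p = 0.000274). No test for a single array that stands apart was run in these groups of 3.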

How the results depend on the processing

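Counts are of the 40 genes called. Unless a share is printed, counts here and in the next paragraph stand without the share of all genes called in the same fit. A rise or fall of such a count is therefore not read as a result about these genes. With the replicate block, calls were 4 (1 without it) for IFN gamma against mock at 30-60 min, 11 (3) at 0-60 min and 3 (0) at 150-180 min. Of all genes 12.2%, 20.4% and 11.9% were called in the same order under the block. For IFN alpha against mock calls were 1 (0) at 0-60 min and 2 (0) at 150-180 min, beside 4.8% and 4.66% of all genes. For IFN alpha against IFN gamma they were 7 (4) at 30-60, 8 (2) at 0-60 and 4 (0) at 150-180 min, beside 10.3%, 9.54% and 7.56%. For the shift of the response from 0-30 to 30-60 min they were 2 (1) with IFN alpha and 1 (0) with IFN gamma, and 1 (0) with IFN gamma for the later shift. With only the windows compared, which leaves fewer arrays, calls were 0 (2) for IFN alpha and 2 (4) for IFN alpha against IFN gamma at 30-60 min, 1 (3) for IFN gamma and 0 (2) for IFN alpha against IFN gamma at 0-60 min, 3, 5 and 4 (0 each) at 150-180 min for IFN alpha, IFN gamma and between them, and 1 (0) for the first IFN gamma shift. For 150-180 against 0-30 min they were 19 (4) in IFN alpha arrays, 15 (5) in IFN gamma arrays and 22 (7) in mock. With the mean of probe sets calls were 1 for IFN alpha, 2 for IFN gamma and 2 between them at 30-60 min, 1 for IFN gamma at 0-60 min, 1 for IFN alpha at 150-180 min and 1 for each IFN gamma shift. IFN alpha against IFN gamma at 30-60 min had 2 with no filter, 2 after adding 16 and 2 with no trend, and at 0-60 min 1 with no filter, and a common median gave 1 for IFN alpha at 150-180 min. At 150-180 min the block called Ccnd1, Cdt1 and Pcna lower with IFN gamma (limma adjusted p = 0.00366, 0.0031 and 0.00536), beside 11.9% of all genes. It called Ccnd2 and Cenpe higher with IFN alpha (0.00342 and 0.0494), beside 4.66% of all genes. Whether the numbers pair the arrays of that window was left undecided. The cause was not tested.

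Leaving out 1 array gave 1 to 2 calls for IFN alpha and 1 to 2 for IFN gamma at 30-60 min, and 1 to 5 between them. At 0-60 min it gave 0 to 1, 1 to 7 and 1 to 3, and at 150-180 min 0 to 1 for IFN alpha and 0 to 1 for IFN gamma. It gave 0 to 2 for the first IFN alpha shift and 0 to 1 for the later IFN gamma shift. For 150-180 against 0-30 min it gave 2 to 9 in IFN alpha arrays and 4 to 16 in mock, the highest of each without the first mock array of 0-60 min. Single values that changed sign were Cenpa at 150-180 against 0-30 min with the mean of probe sets, at -0.16 in IFN alpha arrays and -0.13 in IFN gamma arrays, Ccnd1 with IFN alpha at 150-180 min, at 0.025 with the mean of probe sets, and Mcm4 with a common median, at -0.16 for 150-180 against 30-60 min in mock and 0.14 for 30-60 against 0-30 min in IFN alpha arrays. The call of Ccnd1 as lower with IFN gamma at 30-60 and 0-60 min was made under each alternative run.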
